A study of Mus musculus with 15 samples.

Results

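The S phase and DNA replication genes described here are 35 mouse genes that copy the genome or prepare the cell to do so. They were taken by gene symbol from a fixed list, out of the 23420 genes in each of 2 deposited count tables, and all 35 were found in both tables and passed the filter on low counts in both. The series measured RNA by sequencing in whole embryonic lungs of wildtype CD1 mice, an outbred strain, and its subject was transmural pressure, that is, the difference in pressure between the inside and outside of the airways. In 3 groups the lungs were taken straight from embryos at E12.5, E13.5 or E14.5, days of gestation. In the other 2 groups lungs were explanted at E12.5 and kept in culture for 48 h, under low or high pressure. Each group had 3 libraries, and each library came from pooled lungs, 6 for E12.5 and low pressure and 3 for E13.5, E14.5 and high pressure. The labels do not say whether pools came from separate litters or cultures, so a p-value here reflects the spread among these pools and no more. No agent or altered gene entered the design. The RNA came from the whole organ, in which fewer cells in S phase and less RNA per cell cannot be told apart.

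DNA replication begins when the origin recognition complex, Cdc6 and Cdt1 load the MCM helicase onto origins in G1. Cyclin E with its kinase and the E2F transcription factors then carry the cell into S phase, where primase, the replicative polymerases and the sliding clamp PCNA copy the strands. Ribonucleotide reductase, thymidylate synthase and thymidine kinase supply nucleotides, FEN1 and DNA ligase I join the fragments of the lagging strand, and histone chaperones rebuild chromatin. Many of these genes are transcribed under E2F control and peak at the G1 to S transition, so their RNA is widely read as a mark of proliferation. In the embryonic lung, epithelium and mesenchyme both proliferate while the airways branch.

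Promoter sequences show one feature that the choice of genes did not use. RefSeq promoters of build GRCm38.p6, 250 bases before to 50 after the start, were found for 30 of the 35 genes, and not for Mcm4, Ccne2, Pole, Prim2 and Rfc2. At least one of the E2F-type motifs TTTCGCGC, TTTGGCGC and TTTCCCGC, read on both strands, lay in the promoters of 12 of these 30 genes (40.0%), against 2.12% of all 27025 genes with a promoter. The 12 were Mcm3, Mcm5, Mcm6, Mcm7, Cdc6, Cdt1, Pola1, Pold1, Rfc3, Lig1, Orc1 and Uhrf1. Of 52 other replication and S phase genes 40 had a promoter in RefSeq, and 17 of these (42.5%) held a motif. Of 24 mitosis genes 20 had one, and 1 of these held a motif. CCAAT, the pentamer of the CCAAT box, was in 17 of 30 (56.7%), against 41.1% of all genes, and can share letters with a neighbouring E2F-type motif. A match is a run of letters and shows no binding.

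Promoters are shown for the 3 genes that were higher and for 2 of those that were lower at high pressure. Capitals on the given strand mark matches of E2F-type motifs, and in Slbp alone those of CCAAT. An E2F-type motif on the opposite strand reads GCGCGAAA, GCGCCAAA or GCGGGAAA. Those of Mcm7 (chr5:138171834-138172133, minus strand), Lig1 (chr7:13278576-13278875, plus strand), Pold1 (chr7:44548766-44549065, minus strand) and Orc1 (chr4:108579204-108579503, plus strand) hold an E2F-type motif. That of Slbp (chr5:33652525-33652824, minus strand) holds none, and its capitals mark CCAAT. The promoters of Mcm7 and Orc1 also hold CCAAT, left in lower case. Of the lower genes not shown, Rrm2 and Rfc4 held no E2F-type motif and Pole had no promoter. Among the 12 genes with a motif 3 were higher and 1 lower, with a median log2 fold change of 0.08. Among the 18 without one 0 were higher and 3 lower, with a median of 0.02. Of all genes tested 14.0% were higher and 12.2% lower. Without low pressure replicate 3 the 12 genes had 4 higher and 2 lower (median 0.03), and the 18 had 2 higher and 5 lower (median 0.05). A relation of motif and pressure was not tested. For Mcm7 and Lig1, which have more than one start in RefSeq, the promoter with the motif is shown.
Mcm7: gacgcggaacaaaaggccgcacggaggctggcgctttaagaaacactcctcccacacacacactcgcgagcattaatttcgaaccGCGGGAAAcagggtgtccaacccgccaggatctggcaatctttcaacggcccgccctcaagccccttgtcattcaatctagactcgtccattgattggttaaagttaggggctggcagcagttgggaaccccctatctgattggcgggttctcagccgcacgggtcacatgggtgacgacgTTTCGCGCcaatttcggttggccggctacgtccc
Lig1: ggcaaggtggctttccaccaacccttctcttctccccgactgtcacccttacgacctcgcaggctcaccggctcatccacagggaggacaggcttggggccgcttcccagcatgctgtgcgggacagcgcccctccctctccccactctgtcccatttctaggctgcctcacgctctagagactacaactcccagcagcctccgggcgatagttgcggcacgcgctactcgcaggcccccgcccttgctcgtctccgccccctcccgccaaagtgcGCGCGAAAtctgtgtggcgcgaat
Pold1: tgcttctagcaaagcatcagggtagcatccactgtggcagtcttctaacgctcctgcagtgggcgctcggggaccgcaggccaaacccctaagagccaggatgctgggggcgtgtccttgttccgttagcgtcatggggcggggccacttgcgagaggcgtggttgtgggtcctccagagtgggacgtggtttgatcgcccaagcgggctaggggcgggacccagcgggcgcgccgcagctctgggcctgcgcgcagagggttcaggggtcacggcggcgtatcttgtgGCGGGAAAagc
Orc1: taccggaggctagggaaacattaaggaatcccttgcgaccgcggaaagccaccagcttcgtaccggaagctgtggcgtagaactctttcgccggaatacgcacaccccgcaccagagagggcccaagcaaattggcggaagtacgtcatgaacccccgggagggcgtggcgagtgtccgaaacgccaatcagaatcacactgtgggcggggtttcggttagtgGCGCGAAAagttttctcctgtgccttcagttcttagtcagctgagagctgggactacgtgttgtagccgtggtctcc
Slbp: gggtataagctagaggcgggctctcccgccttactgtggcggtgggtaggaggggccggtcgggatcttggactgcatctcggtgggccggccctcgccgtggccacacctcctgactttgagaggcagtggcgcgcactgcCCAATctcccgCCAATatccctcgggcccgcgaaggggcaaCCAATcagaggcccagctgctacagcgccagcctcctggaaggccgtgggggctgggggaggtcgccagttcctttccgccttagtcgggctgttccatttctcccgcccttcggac

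The libraries held 18837343 to 21955244 counts in fresh and 31843739 to 44341263 counts in cultured lungs. The replication genes took 0.460 to 0.584% of the counts in fresh and 0.326 to 0.374% in cultured lungs. Markers of lung epithelium summed to 651.7 to 1342 CPM (counts per 1e6 counts of the library) over the 15 libraries. One cultured library stood apart: low pressure replicate 3 had 14637 genes with a count, against 16465 to 16729 in the other 14. In the fresh lungs replicate 1 of every stage stood apart from replicates 2 and 3, with 3.51 to 4.28% of counts on ribosomal protein genes against 1.73 to 2.19%. That share also differed between the pressures, at 1.90 to 2.16% for low and 3.01 to 3.30% for high. Markers of heart and striated muscle summed to 258.2 to 1164 CPM at E14.5 and to at most 99.0 CPM elsewhere, and those of red cells to 2343 to 2956 CPM at E12.5 and 471.3 to 1318 CPM at E14.5. Among the red cell markers Hba-a1 was listed at 0 in every library.

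Levels between genes were compared as mean CPM per kilobase of exon, with all annotated exons of a gene merged. That length can exceed the length of any single transcript, so the order of genes depends on the annotation. Mcm2 had 6956 merged bases and Mcm3 3752, while their E12.5 means were 201.1 and 224.9 CPM. At E12.5 the highest levels were those of Rrm2, the small subunit of ribonucleotide reductase (139.3 CPM per kb), and Pcna, the sliding clamp (131.6 CPM per kb). At E14.5 the means stood in the other order (Pcna 126.1 and Rrm2 116.0). Within each replicate number, however, the order of the 2 genes was the same at both stages. Pcna was above Rrm2 in replicate 1 and below it in replicates 2 and 3, and neither gene was called between these stages. The MCM subunits ranged from Mcm5 at 73.4 to Mcm2 at 28.9 CPM per kb, with genes of other roles between them, such as Uhrf1 (71.8) and Slbp (69.1). The median gene stood at 25.4 CPM per kb and the lowest, the primase subunit Prim2, at 5.78. In culture Pcna was highest at both pressures (75.4 and 87.0 CPM per kb), and Rrm2 stood at 46.7 and 38.2.

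**Figure D1:**
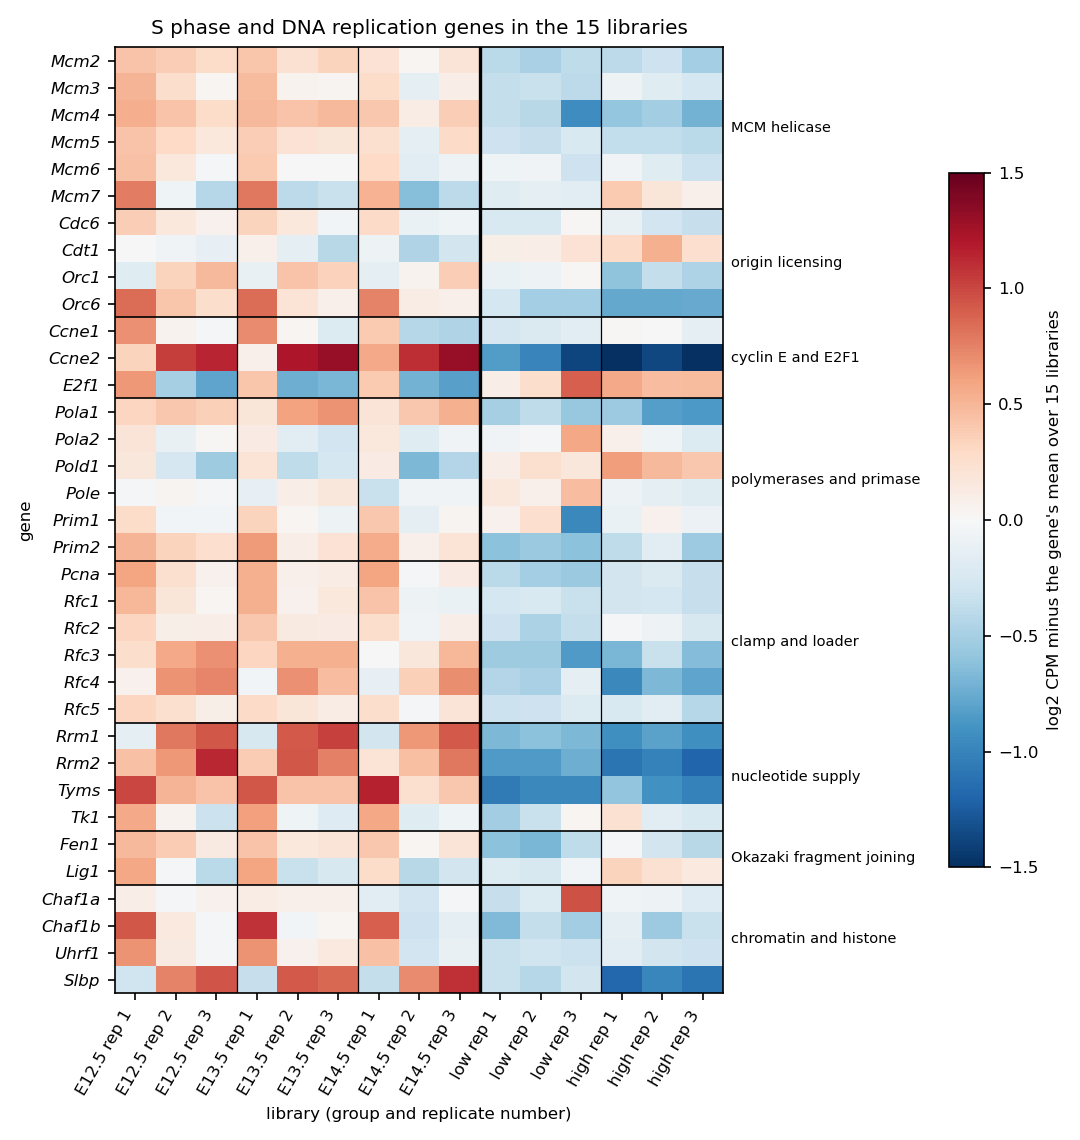
Heat map of the 35 genes, grouped by role, in the 15 libraries. Colour is log2 CPM minus the gene's mean over all libraries, red above and blue below it, and the thick line parts fresh (left) from cultured lungs, whose tables were scaled separately. Most genes are blue in culture, as Ccne2, Rrm2 and Tyms show, and replicate 1 of each stage differs from replicates 2 and 3 for genes such as E2f1, Mcm7, Rrm1 and Slbp.

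The first comparison asked how pressure in culture bears on these genes. At high pressure 3 of the 35 rose, the helicase subunit Mcm7, the polymerase delta catalytic subunit Pold1 and the ligase Lig1. Another 5 fell, the histone mRNA binding protein Slbp, the origin recognition subunit Orc1, the clamp loader subunit Rfc4, the polymerase epsilon catalytic subunit Pole and Rrm2, and 27 did not pass the test (edgeR's quasi-likelihood test, adjusted p under 0.05). The largest change was that of Slbp, with -0.74 on the log2 scale, and 24 of 35 genes differed by less than 0.3 on the log2 scale. Over all 14937 genes tested 26.1% were called, 14.0% higher and 12.2% lower, so the share of 22.9% for the replication genes (8 of 35) was near the background. Their median log2 fold change was 0.02, against 0.01 for all genes. The libraries of the 2 pressures did not overlap for 17 of the 35 genes (48.6%), against 46.8% of all genes.

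**Figure D2:**
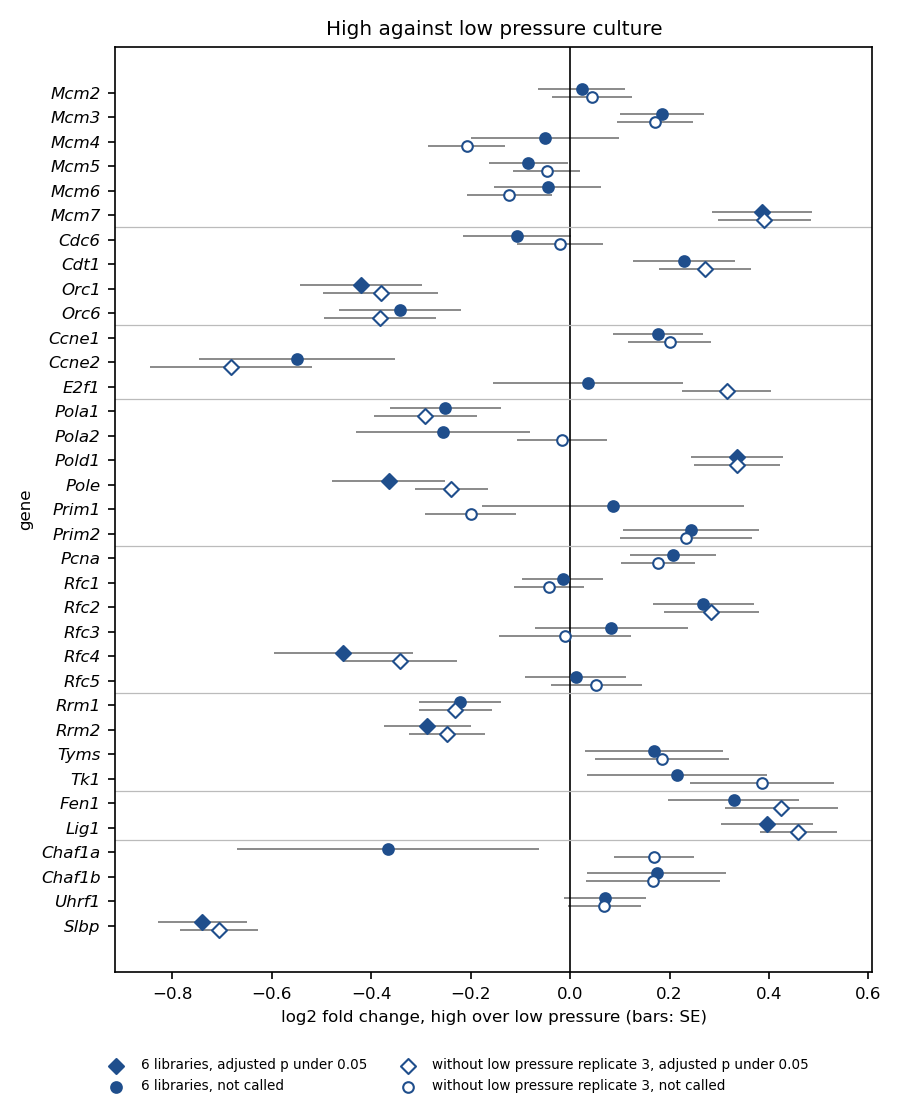
Log2 fold change of each gene, high over low pressure, with its standard error (bars). Filled symbols use all 6 cultured libraries, open symbols leave out low pressure replicate 3, and diamonds mark an adjusted p under 0.05. Genes lie on both sides of 0 within most roles, and Chaf1a, Prim1 and Rfc3 differ in sign between the 2 fits without being called in either.

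Of the 6 subunits of the MCM helicase, the ring that unwinds DNA at the fork, 1 was called, beside 26.1% of all genes tested. Mcm7 stood at 181.3, 187.2 and 185.5 CPM in low pressure replicates 1 to 3 and at 271.7, 234.0 and 218.4 CPM at high pressure. All high pressure libraries lay above all low pressure ones, and the log2 fold change was 0.39, with SE 0.10 and adjusted p = 0.0231. The other 5 subunits did not pass and had log2 fold changes between -0.08 (Mcm5) and 0.19 (Mcm3). For Mcm5 and Mcm3 the libraries of the pressures did not overlap either. Whether Mcm7 differed from the other subunits was not tested. Mcm4 stood at 98.0 CPM in low pressure replicate 3 and at 146.0 and 140.3 CPM in replicates 1 and 2.

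Of the 4 licensing factors, which load the helicase, 1 was called. Orc1, the largest subunit of the origin recognition complex, stood at 22.3, 22.7 and 24.3 CPM at low pressure and at 15.7, 18.6 and 17.4 CPM at high pressure. The groups did not overlap, and the log2 fold change was -0.42, with SE 0.12 and adjusted p = 0.0374. Orc6, another subunit of that complex, had 22.5 to 26.7 CPM in the low and 18.8 to 18.9 CPM in the high pressure libraries and did not pass (-0.34, SE 0.12, adjusted p = 0.0725). Cdt1, the loading factor, had higher values in every high pressure library (99.1 to 120.8 against 88.5 to 96.6 CPM) but did not pass (0.23, SE 0.10, adjusted p = 0.132). Cdc6, the loading ATPase, had -0.11 (SE 0.11).

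Neither cyclin E gene nor E2f1 was called. Ccne2, one of the E cyclins, stood at 26.9, 24.2 and 18.6 CPM in the low and at 16.6, 18.7 and 12.3 CPM in the high pressure libraries. One low pressure library reached into the high pressure range, and the value of -0.55 (SE 0.20) had adjusted p = 0.0719. Ccne1, the other E cyclin, had a log2 fold change with the opposite sign (0.18, SE 0.09, adjusted p = 0.184), with 61.6 to 65.3 CPM in the low and 66.7 to 74.7 CPM in the high pressure libraries. E2f1, a transcription factor of S phase entry, stood at 42.0, 46.9 and 72.9 CPM in the low and 53.7 to 57.7 CPM in the high pressure libraries, so 1 low pressure library was above and the other 2 were below the high pressure ones.

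Among the 6 polymerase and primase genes 1 rose and 1 fell. Pold1, which copies mainly the lagging strand, stood at 94.3, 104.1 and 98.9 CPM at low pressure and 135.9, 123.1 and 116.2 CPM at high pressure. The groups did not overlap, and the rise was 0.34 (log2, SE 0.09, adjusted p = 0.0297). Pole, which copies mainly the leading strand, stood at 103.5, 97.9 and 127.9 CPM in the low and 88.3, 85.0 and 82.4 CPM in the high pressure libraries. Pole thus had lower values in every high pressure library, with a change of -0.36 (log2, SE 0.11, adjusted p = 0.0458). The polymerase alpha subunits Pola1 and Pola2 had -0.25 and -0.26, and the primase subunits Prim1 and Prim2 had 0.09 and 0.24, with none called.

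Of the clamp and its 5 loader subunits 1 was called. Rfc4 stood at 27.7, 26.8 and 33.9 CPM in the low and at 19.2, 23.5 and 21.7 CPM in the high pressure libraries. The groups did not overlap, with a change of -0.46 (log2, SE 0.14, adjusted p = 0.0435). Pcna had higher values in every high pressure library (198.9 to 217.6 against 172.8 to 191.7 CPM) and did not pass (0.21, SE 0.09, adjusted p = 0.107). Among the loader subunits Rfc2 had 0.27 (SE 0.10, adjusted p = 0.0830), and Rfc1, Rfc3 and Rfc5 lay between -0.01 and 0.08.

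In the nucleotide supply group Rrm2 was called. It stood at 126.2, 125.5 and 136.1 CPM in the low and 105.8, 112.5 and 99.5 CPM in the high pressure libraries. No library overlapped between the pressures, and the change was -0.29 (log2, SE 0.09, adjusted p = 0.0419). Rrm1, the large subunit of the same enzyme, had -0.22 (SE 0.08, adjusted p = 0.0776), also without overlap. Tyms, thymidylate synthase, and Tk1, thymidine kinase, had 0.17 and 0.21 with overlapping libraries. The tables also hold a Tyms pseudogene, and how reads shared by such copies were counted is not given in the sources used here.

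Both genes of Okazaki fragment joining had positive log2 fold changes, and Lig1 was called. Lig1, DNA ligase I, stood at 116.5, 113.8 and 130.2 CPM in the low and at 168.6, 156.9 and 148.8 CPM in the high pressure libraries. Every high pressure library was above every low pressure one, and the rise was 0.40 (log2, SE 0.09, adjusted p = 0.0164). Fen1, the flap endonuclease, had 0.33 (SE 0.13, adjusted p = 0.101) with overlapping libraries.

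Of the 4 chromatin and histone genes Slbp was called, with the smallest p of the 35. Slbp, which binds the stem-loop of histone mRNAs, stood at 226.8, 212.5 and 234.8 CPM in the low and at 126.3, 144.3 and 133.0 CPM in the high pressure libraries. The means were 224.7 and 134.5 CPM, the groups did not overlap, and the change was -0.74 (log2, SE 0.09, adjusted p = 0.00131). The chromatin assembly subunits Chaf1a and Chaf1b had -0.37 (SE 0.30) and 0.17 (SE 0.14), and Uhrf1, which reads hemimethylated DNA behind the fork, had 0.07 (SE 0.08).

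**Figure D3:**
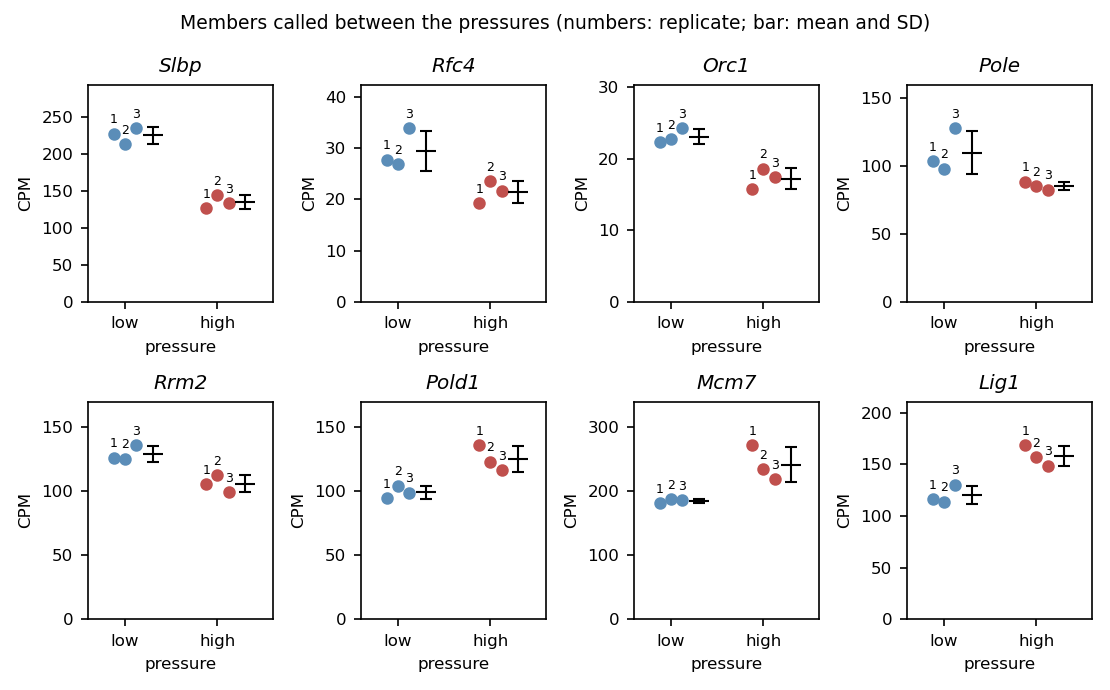
CPM of the 8 genes called between the pressures in each cultured library (points, numbered by replicate; bars, mean and SD of 3 libraries; vertical axes start at 0). In each panel the low and high pressure points do not overlap, with Slbp at 212.5 to 234.8 against 126.3 to 144.3 CPM.

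The calls depended on the libraries. With low pressure replicate 3 left out, 7 replication genes were higher and 9 lower (45.7%), while 41.1% of all genes were called, 22.1% higher and 18.9% lower. All 8 calls above were among these 16, and Cdt1, E2f1, Rfc2 and Fen1 joined the higher genes, and Ccne2, Rrm1, Pola1, Orc6 the lower ones. In that library Chaf1a had 243.1 CPM, 2.35 times the mean of low pressure replicates 1 and 2, and E2f1 (1.64 times), Pola2 (1.54 times) and Prim1 (0.458 times) also departed by over 1.5 times. With any 1 of the other 5 libraries left out, 1 to 3 replication genes were called, and Slbp was among them each time. The share of all genes called in those fits is not given here, so a general loss of calls cannot be told from one of these genes. Over the 15 alternative settings Slbp kept an adjusted p under 0.05 in 14, Lig1 in 10, Mcm7 in 9, Pole and Rfc4 in 8, Pold1 in 7, and Rrm2 and Orc1 in 6. With offsets for the GC content and length of transcripts 4 were higher (Mcm7, Prim2, Rfc2 and Lig1) and 3 lower (Rfc4, Orc6 and Slbp), 7 of 35 beside 21.4% of all genes, and 4 of the 8 calls were among them. With all 15 libraries in 1 edgeR fit 0 were called, and 2 had an unadjusted p under 0.05, while 7.50% of all genes were called. Markers of other cell types also differed between the pressures. Of 7 lung epithelial markers 3 rose and 1 fell, with a median log2 fold change of -0.12, and their sum was 909.2 to 976.9 CPM at low and 1262 to 1342 CPM at high pressure. Of 7 mesenchymal markers 3 rose and 3 fell, with a median of -0.31. Their sum went from 2343 to 2644 CPM up to 3114 to 3829 CPM with Col1a1, and from 1294 to 1442 CPM down to 1021 to 1079 CPM without it. Of 6 endothelial markers 1 fell, all 6 values were negative, and the sum was 209.7 to 335.0 and 93.1 to 215.1 CPM. The part of these shifts in the calls was not tested.

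Other cell cycle genes, from lists chosen with earlier results of these data known, were read in the same comparison. Of 52 other replication and S phase genes 4 rose and 7 fell. Among the risen ones were Ung, which removes uracil from DNA (0.66), and Dut, the dUTPase that keeps uracil out (0.61). The fallen ones included the origin recognition subunits Orc2 (-0.52), Orc3 (-0.51), Orc4 (-0.42) and Orc5 (-0.59). Of 24 mitosis genes 9 rose, such as the anaphase activator Cdc20 (0.80), and 1 fell, the checkpoint kinase Bub1 (-0.53), against 14.0% higher and 12.2% lower among all genes. Without low pressure replicate 3 this list had 14 higher and 1 lower, and with all 15 libraries in 1 edgeR fit it had 0 called and 4 with an unadjusted p under 0.05. Of 16 cell cycle inhibitors 5 rose and 1 fell, and Cdkn1a, the inhibitor p21, went from 59.4 to 175.1 CPM (1.56, SE 0.12, adjusted p = 0.00031).

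The second comparison asked how the genes change with age in lungs not cultured. In the planned edgeR fit, with no term for replicate number, 0 of 14242 genes (0%) passed in any of the 3 pairs of stages, and 0 of the 35 replication genes had an unadjusted p under 0.05. At that unadjusted threshold 123 genes of all were found for E13.5 against E12.5, 977 for E14.5 against E13.5 and 1328 for E14.5 against E12.5. DESeq2, which called 2.94% of all genes for E14.5 against E12.5 and 1.70% for E14.5 against E13.5 without the block, and limma-voom called 0 replication genes. Libraries with the same replicate number deviated together from their stage means (correlations of 0.397 to 0.838 over 9 pairs), mainly through replicate 1. The fit with replicate number as a block is therefore given beside it. Replicates 2 and 3 of different stages also correlated where their numbers differed (0.454 to 0.625). These values thus do not settle the matching of 2 with 2 and 3 with 3.

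With the block, Ccne1 alone among the 35 passed, and was lower at E14.5. It stood at 118.8, 76.3 and 72.3 CPM in replicates 1 to 3 at E12.5, at 120.4, 75.3 and 63.6 CPM at E13.5 and at 96.6, 54.7 and 54.0 CPM at E14.5. The stages overlapped because replicate 1 was high at each, while in every replicate number the E14.5 library was below both others. Its change from E12.5 to E14.5 was -0.40 (log2, SE 0.08, adjusted p = 0.00844), and from E13.5 to E14.5 it was -0.34 (SE 0.08, adjusted p = 0.0261). The first call held in all 14 alternative settings of the blocked fit and the second in 9 of 14. Settings that left out a library of the stage not compared could alter little beyond the estimate of the spread. Over all genes 11.0% were called between E12.5 and E14.5, 3.63% as lower, and 6.01% between E13.5 and E14.5, 1.86% as lower, and the share of the replication genes was 2.86% (1 of 35) in each, near that of lower genes overall. From E12.5 to E13.5 0 replication genes passed, with 0 at an unadjusted p under 0.05 and 0 by DESeq2 with the block, and 0.00702% of all genes did.

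Though few passed, most values were lower at E14.5. With the block 30 of 35 log2 fold changes were negative for E14.5 against E12.5, with a median of -0.15 against -0.003 for all genes, and 30 of 35 for E14.5 against E13.5, with a median of -0.11. The 2 comparisons share the E14.5 libraries. For E13.5 against E12.5, 20 were negative and the median was -0.04. In all 3 same-numbered pairs 18 genes (51.4%) were lower at E14.5 than at E12.5, against 23.2% of all genes, and 19 (54.3%) were lower than at E13.5, against 22.7%. Only Ccne2 was higher at E14.5 than at E12.5 in all 3 pairs, against 25.2% of all genes. Whether the second day changed the genes differently from the first was tested directly with the block, and 0 of 35 passed, with 2 at an unadjusted p under 0.05 and 0 by DESeq2, against 0.0211% of all genes.

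The gene with the smallest p in each other role did not pass between E12.5 and E14.5 with the block, though some passed in other settings. In the 14 alternatives of the blocked fit Uhrf1 was called as lower in 6, and Mcm2 and Rfc3 in 2 each. With RLE size factors Mcm2, Rfc3, Chaf1a and Uhrf1 were called beside Ccne1, and with DESeq2 Mcm2, Mcm7 and Uhrf1. Uhrf1 stood at 397.7, 274.9 and 245.4 CPM at E12.5 and 338.9, 204.9 and 230.9 CPM at E14.5 (-0.25, SE 0.07, adjusted p = 0.0526). Rfc3, a clamp loader subunit, had 32.6, 40.3 and 43.8 CPM and then 27.1, 30.4 and 38.3 CPM (-0.29, SE 0.09, adjusted p = 0.0691). Both genes were lower in each of the 3 pairs, with stages that overlapped. Mcm2 had 210.9, 202.9 and 189.7 CPM at E12.5 and 181.9, 159.9 and 179.9 CPM at E14.5, without overlap (-0.21, SE 0.07, adjusted p = 0.0734). Rrm2 had 307.4, 355.5 and 495.3 CPM and then 262.4, 310.0 and 392.3 CPM (-0.26, SE 0.11, adjusted p = 0.146). The same pattern of 3 lower pairs held for Orc6 (-0.19, adjusted p = 0.154) and Pole (-0.15, adjusted p = 0.237), while Lig1 (-0.20, adjusted p = 0.232) was lower in 2.

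**Figure D4:**
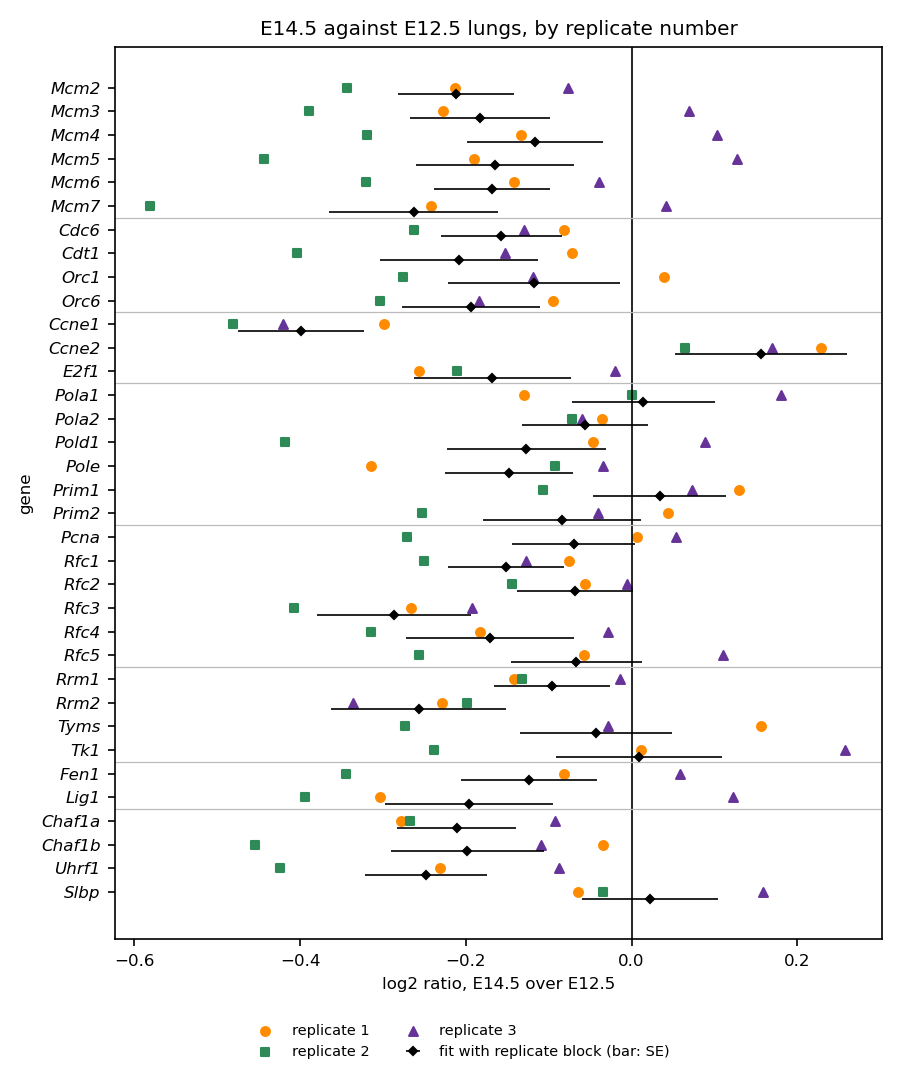
Log2 ratio of E14.5 over E12.5 for each gene in replicates 1, 2 and 3 (coloured symbols) and the log2 fold change of the fit with the replicate block (black, bar: SE). Ccne1 has all 3 ratios well below 0, and for many genes replicate 2 (green squares) is the lowest.

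The size of that shift depended on single libraries. E14.5 replicate 2 had the lowest summed level of the 35 genes among fresh libraries, 4652 CPM against 5190 to 5709 CPM in the other 8, and the highest sum of heart and striated muscle markers, 1164 CPM. Without it the median for E14.5 against E12.5 was -0.08, 28 of 35 values were negative and Ccne1 was the 1 gene called. Without E12.5 replicate 2 the median was -0.09, and without E12.5 replicate 3 Mcm7 and Uhrf1 were called beside Ccne1. For E14.5 against E13.5 the median was -0.06 without E14.5 replicate 2, and 0 genes were called without it, without E14.5 replicate 1 or 3, or without E13.5 replicate 1 or 2, while Uhrf1 joined Ccne1 without any 1 E12.5 library. The heart and striated muscle sum was at most 31.3 CPM at E12.5, and the sum of red cell markers was lower at E14.5 than at E12.5, as given above. In the blocked fit all 6 endothelial markers were called as higher at E14.5 than at E12.5, and their sum averaged 524.9 and 798.5 CPM at these stages. The part of these cell types in the values was not tested.

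The lists read beside them moved as follows with the block. Between E12.5 and E14.5, 1 of 52 other replication and S phase genes rose and 5 fell, among them the histone chaperone Nasp (-0.39) and the GINS subunit Gins3 (-0.44). The 24 mitosis genes had a median of -0.05. Of 14 cell cycle inhibitors tested 6 rose, such as Cdkn2c, an inhibitor of the cyclin D kinases (0.93), while 7.33% of all genes were called as higher. Without the block edgeR called 0 of the 14, with 2 at an unadjusted p under 0.05, and DESeq2 0.

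Within a stage, replicate 1 differed from replicates 2 and 3 by more than the stages differed from each other. Averaged over the 3 stages, 26 of the 35 genes were higher and 9 lower in replicate 1, with a median size of 0.44 on the log2 scale, and 34 had the same sign at every stage. The split was not particular to these genes. Over all genes the first component of the deviations from stage means, with 74.2% of their variance, separated replicate 1. The median size of the blocked difference between E12.5 and E14.5 was 0.16, and the replicate difference was the larger one for 33 of 35 genes. E2f1 was highest, with 61.3, 52.2 and 51.3 CPM in replicate 1 of the 3 stages and 22.3 to 27.6 CPM in the other 6 libraries. Slbp was lowest, with 232.4, 224.3 and 222.2 CPM in replicate 1 and 467.2 to 611.5 CPM in the others. Mcm7 (1.06) and Chaf1b (1.02) were also higher, and Rrm1 (-1.09) and Ccne2 (-0.86) also lower, on the log2 scale.

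This replicate difference ran along the pressure difference across genes. The genes called as higher at high pressure, Mcm7, Lig1 and Pold1, were all higher in replicate 1 of the fresh lungs, and the 5 called as lower were all lower in it. Over the 35 genes Pearson's r between the 2 differences was 0.748 and Spearman's rho 0.667, and 26 had the same sign (74.3%). Over all 14017 genes r was 0.441, rho was 0.501 and 69.1% had the same sign, so the relation was not particular to these genes. The genes are not independent replicates, and no test was made. The GC content of the transcripts, from 36.3% for Ccne2 to 61.0% for Pold1, correlated with the pressure difference at r = 0.552 and with the replicate difference at r = 0.596, against 0.256 and 0.505 over 13185 genes. The share of counts on ribosomal protein genes was higher both in replicate 1 and at high pressure. The part of these properties in the pressure calls was not tested beyond the GC and length offsets above.

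**Figure D5:**
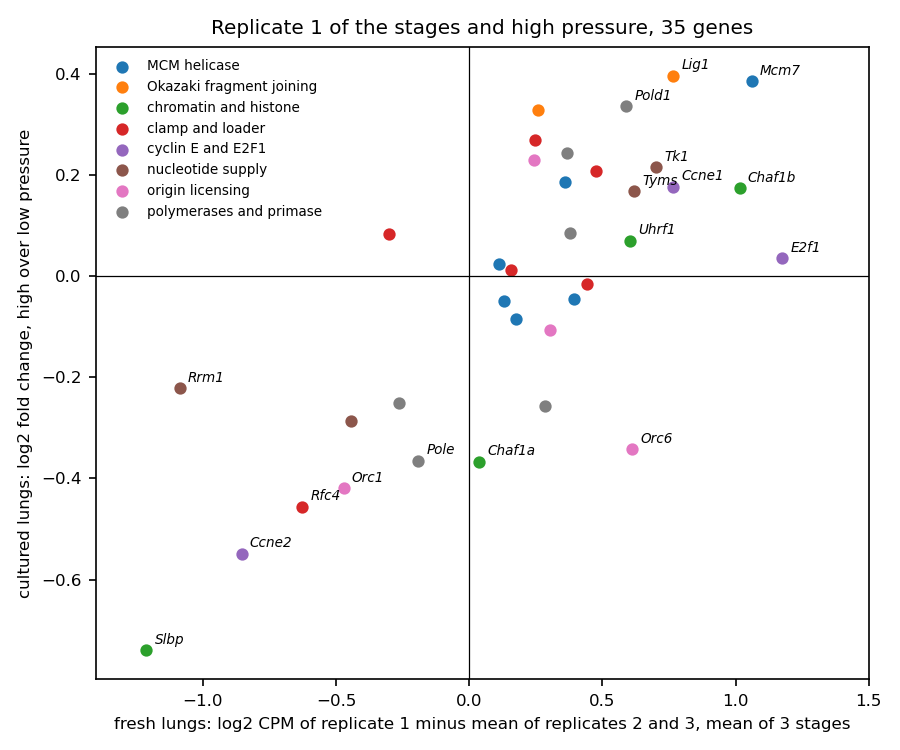
Each point is 1 of the 35 genes, coloured by role. The horizontal axis is the log2 CPM of replicate 1 minus the mean of replicates 2 and 3, averaged over the 3 stages; the vertical axis is the log2 fold change of high over low pressure. Slbp lies lowest on both axes, and Mcm7 and Lig1 are at the upper right (r = 0.748 over the 35 genes and 0.441 over all genes tested, a description).

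Fresh and cultured lungs were deposited in separate tables and scaled separately, so their levels are set side by side with no test, and culture, age and table cannot be told apart. The summed level of the 35 genes was 5469 to 5709 CPM at E12.5, 3478 to 3674 CPM at low pressure and 3291 to 3651 CPM at high pressure. The low pressure mean was below the E12.5 mean for 29 of 35 genes (82.9%, against 52.4% of all genes), with a median ratio of 0.663 against 0.969. Every cultured library was below every fresh one for 16 genes (45.7%), against 12.4% of all genes. Endothelial markers summed to 431.4 to 885.4 CPM in fresh and 93.1 to 335.0 CPM in cultured lungs. The other replication list (median ratio 0.621) and the mitosis list (0.645) had ratios of similar size.

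The smallest ratios of low pressure to E12.5 were those of Ccne2 (0.261), Tyms (0.315), Rrm2 (0.335) and Rrm1 (0.418). Of these 4, 3 came from nucleotide supply, while Tk1, the remaining gene of that role, had 0.758, above the median ratio of 0.663. Ccne2 averaged 88.9 CPM at E12.5, 23.2 CPM in the low and 15.9 CPM in the high pressure libraries. Tyms averaged 70.8, 22.3 and 25.1 CPM in the same order. The 6 genes that were not lower at low pressure were E2f1 (1.45), Pold1 (1.27), Pole (1.18), Chaf1a (1.16), Cdt1 (1.14) and Pola2 (1.12). Without low pressure replicate 3 the low pressure means of Chaf1a and Pola2 were 103.5 and 84.1 CPM, below their E12.5 means of 129.6 and 88.6 CPM. Cdt1 was the gene of the 35 with every cultured library above every fresh one, at 88.5 to 120.8 against 60.9 to 87.8 CPM. The gap from 87.8 to 88.5 CPM is narrow for values scaled separately, and the share of all genes in this direction was not counted.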

How the data were processed

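RNA libraries of 15 pools of mouse lung were counted per gene; the authors deposited raw counts in 2 tables of 23420 genes, used here, and 6 further tables, not used here. Per the submitters' processing notes the tools were cutadapt 1.6, Bowtie 1.1.1, TopHat, HTSeq and DESeq2 on mm10; the sources used here do not give their settings, the annotation or the strand setting, and values of overlapping genes may hold each other's reads. Counts were tested per table in R 4.3.3 with edgeR 4.0.16 (TMM scaling, filterByExpr, robust quasi-likelihood F test, Benjamini-Hochberg over all genes, 0.05); the SE is the log2 fold change divided by the root of F. CPM used TMM-scaled totals. DESeq2 1.42.0, limma-voom (limma 3.58.1), other scalings, no filter, replicate blocks, GC content and length offsets and leaving out each library were alternatives; the scripts were tested on simulated data. Replicate numbers were taken to pair fresh libraries, since all 9 same-numbered pairs correlated (0.397 to 0.838; other pairs -0.736 to 0.625), mainly through replicate 1, which the first component (74.2%) separated; cultured ones did not (-0.0124 to 0.0461). Named genes are those called, with at least the smallest p of each role in each comparison; others were named after their values were seen. The members and lists were chosen with earlier results of these data known. Merged exon lengths, and the GC content of the longest transcript of each gene, came from GENCODE M21. No pair of libraries agreed within sampling noise.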

Additional observations from a re-analysis of the deposited data

How the results depend on the processing

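Over 15 alternatives to the pressure fit, 431 of 525 gene values kept their side of the threshold and their sign, 52 lost and 14 gained a call, 28 uncalled values changed sign and 0 called ones did. Higher genes numbered 3: 1 with a replicate block, 0 with all 15 libraries in 1 fit, and 0 to 7 with each library left out. Lower genes numbered 5: 3 without a filter on low counts, 2 with a replicate block, 0 with all 15 libraries, 3 with GC content and length offsets, and 1 to 9 with each library left out. Over all genes 2089 were higher and 1816 lower in the main pressure fit, and 1717 and 1420 with a replicate block. These counts were 2061 and 1746 without a filter, 550 and 571 with all 15 libraries, and 1828 and 1171 with the offsets. Cultured libraries with the same replicate number did not deviate together (-0.0124 to 0.0461), and the labels do not say whether the numbers pair them. Without the block 0 genes were lower at E14.5; against E13.5 1 was lower with the replicate block, 1 with a term for replicate 1 and 2 with block and offsets; against E12.5 1 was lower with the block, 1 with a term for replicate 1, 1 with replicates 2 and 3 only and 3 with block and offsets. From the blocked fit, RLE size factors and DESeq2 (both chosen after seeing the data, as were the other scalings and omissions under the block) gave 3 and 3 lower genes against E13.5, and 5 and 4 against E12.5, where upper quartile scaling and total counts gave 2 each. Over all genes the lower ones against E12.5 numbered 517 with the block, 728 with RLE size factors and 744 with DESeq2. Leaving out each library gave 0 to 2 lower replication genes against E13.5 and 1 to 3 against E12.5. Without ribosomal protein and mitochondrial genes the share of counts was 0.567% at E13.5 and 0.362% at low pressure, and with scaling over all 15 libraries the summed level at E13.5 was 5589 CPM. The cause of these shifts was not tested. With 3 pools a group, 1 of the 24 pressure differences under 0.3 on the log2 scale was called.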
